A study of Arabidopsis thaliana with 6 samples.

Results

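Glutathione transferases are a large enzyme family of Arabidopsis thaliana, and 43 of its genes, listed by their gene identifiers in the tau, phi, lambda, zeta, theta and dehydroascorbate reductase (DHAR) classes, were followed in the root tip. Genes were matched by identifier with no cut on their level, but the list was chosen with earlier results of these data known. Of the 43, 37 were in the count table of 18734 genes, and all 37 were tested: 22 of 25 tau, 7 of 10 phi and all 3 lambda, 1 zeta, 1 theta and 3 DHAR genes. The 6 others (GSTU3, GSTU12, GSTU21, GSTF3, GSTF11 and GSTF14) were not analysed here.

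Glutathione is a small thiol peptide that plant cells use to buffer oxidants and to tag reactive or foreign compounds. Tau and phi enzymes, the classes most expanded in plants, use a serine in the active site to join glutathione to such compounds, and the conjugates are then pumped into the vacuole. Lambda and DHAR enzymes carry a cysteine in its place and act as thiol transferases or reduce dehydroascorbate, while zeta enzymes isomerise an intermediate of tyrosine breakdown and theta enzymes reduce organic hydroperoxides. Many tau and phi genes are known as rapidly induced by auxin, pathogens and chemical stress.

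The study compared poly(A) RNA of Col, the wild type Columbia-0, with that of ore15-2, a line of the same Columbia-0 background disrupted by T-DNA in the PLATZ-family transcription factor gene ORE15. Each genotype had 3 libraries, made from primary root tips 0.5 cm long, cut 5 days after planting from seedlings kept in continuous light, and the labels name no treatment for them. The protocol gives 2 seedlings per genotype against 3 libraries and does not say that the libraries came from separate plants, so p-values reflect scatter between libraries that could be technical in part or in whole. The ore15-2 line is a single insertion allele, and its libraries are named here by genotype and replicate number.

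AT1G31040, taken as ORE15 from background knowledge since the reference gives the locus no symbol, had 13, 12 and 8 counts in Col and 0, 0 and 1 in ore15-2. The labels call the cells root meristem stem cells, and all 6 meristem and stem cell markers (PLT1, PLT2, SCR, SHR, WOX5, CYCB1;1) were detected in each library beside markers of root hair, endodermis, xylem, phloem and root cap. Before any result, ore15-2 replicates 1 and 2 stood apart. They held 6706712 and 6396903 counts against 16503138 in replicate 3 and 17433440 to 20333352 in Col, and 2.91% and 3.20% of their counts were mitochondrial against 0.183% to 0.328% in the other 4 libraries. On the first principal component they lay at 33.5 and 67.3, with ore15-2 replicate 3 at -4.07 and Col between -36.7 and -27.8. Levels below are CPM, read counts scaled to a common library size after TMM, which equalises libraries on the bulk of their genes, and changes are log2 fold changes of ore15-2 over Col from edgeR's quasi-likelihood test. A gene rose or fell where its p-value, adjusted by Benjamini-Hochberg over 18726 genes, was under 0.05.

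The genes on which the family's clearest differences rest are shown by their sequence, read from the RefSeq TAIR10.1 genome and given 5′ to 3′ on the gene's own strand. GSTL1 and GSTL3 are lambda genes that follow each other on chromosome 5 with 3 bases between their annotated ends, and their coding sequences are 75.6% identical with gaps counted. A stretch of 120 coding bases (bases 22 to 141 of GSTL1 and 16 to 135 of GSTL3, plus strand) is given as an ungapped part of their alignment, with the 15 bases that differ in capitals.
GSTL1: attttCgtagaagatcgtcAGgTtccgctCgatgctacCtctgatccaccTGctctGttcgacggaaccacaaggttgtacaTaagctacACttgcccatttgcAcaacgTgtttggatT
GSTL3: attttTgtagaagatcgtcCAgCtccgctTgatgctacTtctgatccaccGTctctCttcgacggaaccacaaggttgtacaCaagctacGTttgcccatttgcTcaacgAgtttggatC

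GSTF6 and GSTF7 are phi genes that lie next to each other on chromosome 1, and their coding sequences are 94.3% identical over the alignment with gaps counted, with 594 of 627 ungapped bases the same. The first 120 coding bases (minus strand) are shown because reads from such stretches are hard to place, and the 2 bases that differ are in capitals.
GSTF6: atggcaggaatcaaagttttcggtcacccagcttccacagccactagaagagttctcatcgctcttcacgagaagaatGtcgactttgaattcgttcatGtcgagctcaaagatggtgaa
GSTF7: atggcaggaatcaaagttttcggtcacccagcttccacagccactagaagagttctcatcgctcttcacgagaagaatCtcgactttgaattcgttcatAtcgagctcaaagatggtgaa

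Of all 50-base windows in their transcripts, 9.41% for GSTF6 and 9.19% for GSTF7 occurred more than once in the genome. How the authors' counting split reads of these windows is uncertain, while for GSTL1, GSTL2, GSTL3, GSTF12, GSTU5 and GSTU20 no such window was repeated.

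The 250 bases before the annotated start of GSTL1 and GSTF7, which both fell, are given as well, since the letters TTGAC, the core of the W-box bound by WRKY factors, were found in both. Capitals mark TTGAC or, for the other strand, GTCAA.
GSTL1, chr5:630498-630747, plus strand: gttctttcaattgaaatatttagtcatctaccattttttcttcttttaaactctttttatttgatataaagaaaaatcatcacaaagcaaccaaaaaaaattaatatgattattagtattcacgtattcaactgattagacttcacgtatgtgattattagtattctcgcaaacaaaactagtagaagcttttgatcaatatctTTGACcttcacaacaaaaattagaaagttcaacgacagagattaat
GSTF7, chr1:659981-660230, minus strand: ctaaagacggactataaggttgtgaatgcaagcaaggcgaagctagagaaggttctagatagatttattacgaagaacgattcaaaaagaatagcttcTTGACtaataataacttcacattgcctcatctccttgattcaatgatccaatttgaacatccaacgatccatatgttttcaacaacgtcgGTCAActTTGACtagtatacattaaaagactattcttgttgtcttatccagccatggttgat

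Across the family, 3 of 37 members rose (GSTF12, GSTU5 and GSTU20) and 4 fell (GSTL1, GSTF6, GSTF7 and GSTL2) in ore15-2, or 18.9% of the members against 9.9% of all genes tested. By direction, 8.11% rose against a background of 6.47% and 10.8% fell against 3.43%. The median change of the 37 members was 0.22, against -0.00049 for all genes. It was 0.091 against 0.0056 without ore15-2 replicates 1 and 2, and -0.0028 against -0.21 on log2(RPKM + 1) of the deposited values. In the edgeR fit of all libraries, 25 of 37 members (67.6%) had a change above 0 against 49.9% of all genes. CPM of all ore15-2 libraries lay above all Col libraries for 14 members (18.2% of all genes) and below for 5 (16.3% of all genes), so that 19 of 37 did not overlap, with 34.5% of all genes in the same position. An unadjusted p under 0.05 was reached by 15 members, 11 higher and 4 lower, and by 26.9% of all genes. The 30 members not past the threshold ranged from -0.50 for GSTU2 to 0.75 for GSTF8. The count of calls depended on which ore15-2 libraries were kept. Without ore15-2 replicate 3, 13 members rose and 7 fell, with 35.3% of all genes called. Since these are whole root tips, fewer cells of a type and less RNA per cell cannot be told apart.

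**Figure D1:**
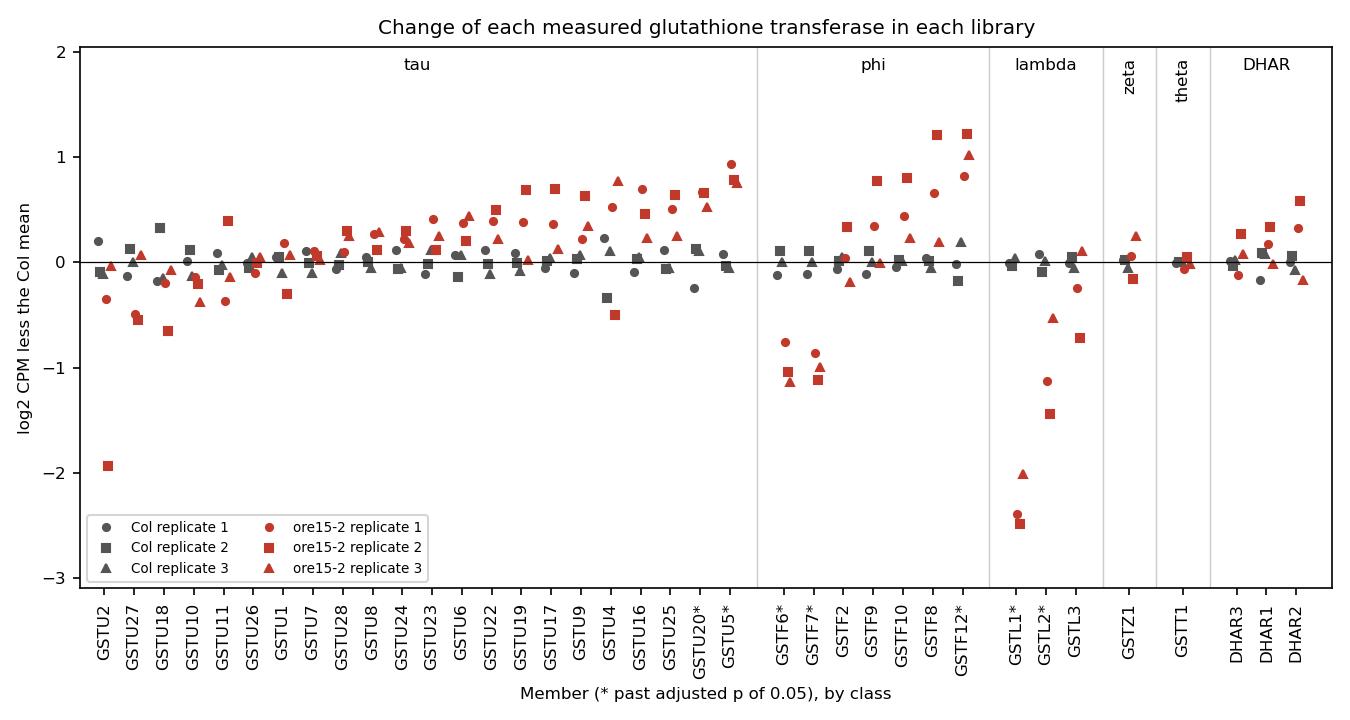
Change of ore15-2 against Col on the log2 scale, after TMM scaling, for the 37 measured members, grouped by class. GSTL1 lies farthest from 0, with an edgeR log2 fold change of -2.25. In the edgeR fit 7 members passed an adjusted p of 0.05, and the tau members lie mostly above 0.

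The lambda class carried the largest difference of the family. GSTL1 (AT5G02780, chr5:630748-632792, plus strand), by its class a thiol transferase, stood at 36.1, 35.5 and 37.3 CPM in Col and at 6.78, 6.36 and 8.92 CPM in ore15-2. The groups were far apart, and all 3 ore15-2 libraries, the deeper replicate 3 included, lay at the low level. The mean fell from 36.3 ± 0.941 to 7.36 ± 1.37 CPM (SD, n = 3 each), 4.75-fold lower, with a log2 fold change of -2.25 (SE 0.14, edgeR adjusted p = 0.0001179). Behind these levels were 696, 781 and 781 counts in Col and 42, 32 and 156 in ore15-2. GSTL1 passed the threshold in all 20 alternatives tried, with changes from -2.53 to -2.01, and it stood at -2.01 with ore15-2 replicate 3 as the only ore15-2 library.

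GSTL3 (AT5G02790, chr5:632796-635240), the next gene on the same strand, had 39.7, 41.1 and 38.3 CPM in Col and 33.4, 24.1 and 42.8 CPM in ore15-2. Here the groups overlapped, with ore15-2 replicate 3 above every Col library. The change of -0.22 (SE 0.17) was not past the threshold (edgeR adjusted p = 0.4389), and it was 0.12 without ore15-2 replicates 1 and 2. The ratio of GSTL1 to GSTL3 counts within a library, which no scaling touches, was 0.910, 0.863 and 0.974 in Col and 0.203, 0.264 and 0.209 in ore15-2. It was thus near parity in each Col library and well under it in each ore15-2 library, a description of a pair picked with the values known. GSTL3 shares 34 bases with a gene on the opposite strand.

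GSTL2 (AT3G55040, chr3:20398538-20400346, minus strand), which the annotation credits with thiol transferase activity in vitro, had 5.39, 4.77 and 5.16 CPM in Col and 2.26, 1.79 and 3.49 CPM in ore15-2. The groups did not overlap, with ore15-2 replicate 3 nearest to Col. The gene fell by 0.88 on the log2 scale (SE 0.23, edgeR adjusted p = 0.04422) from 104, 105 and 108 counts in Col to 14, 9 and 61 in ore15-2. This call was near the threshold: it was lost when any Col library, ore15-2 replicate 1 or ore15-2 replicate 2 was left out (edgeR adjusted p from 0.05951 to 0.1541), and the change was -0.54 without ore15-2 replicates 1 and 2 together. GSTL2 shares 116 bases with a gene on the opposite strand.

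In the phi class 2 members fell (28.6%, background 3.43%), 1 rose (14.3%, background 6.47%) and 4 were not past the threshold. The class held the family's second most abundant transcript by mean deposited RPKM, GSTF8. GSTF6 (AT1G02930, chr1:661088-662475, minus strand), an enzyme linked to synthesis of the defence compound camalexin, had 20.5, 24.0 and 22.4 CPM in Col and 13.1, 10.7 and 10.1 CPM in ore15-2. The 3 ore15-2 libraries were all low. GSTF6 fell by 0.996 on the log2 scale (SE 0.14, edgeR adjusted p = 0.002907), from 22.3 ± 1.72 to 11.3 ± 1.59 CPM (SD, n = 3 each).

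Its neighbour GSTF7 (AT1G02920, chr1:658578-659980, minus strand), a stress-induced phi gene whose transcript starts 1107 bases past the end of GSTF6, had 42.9, 49.8 and 46.4 CPM in Col and 25.4, 21.3 and 23.1 CPM in ore15-2. Again the groups were well separated, with no ore15-2 library apart from the others. GSTF7 fell by 0.99 on the log2 scale (SE 0.11, edgeR adjusted p = 0.000798). The ratio of GSTF6 to GSTF7 counts was 0.479, 0.481 and 0.481 in the Col libraries and 0.516, 0.505 and 0.436 in the ore15-2 libraries, so the pair lay near the same ratio in both genotypes. Both genes passed the threshold in all 20 alternatives, GSTF6 at -1.21 to -0.92 and GSTF7 at -1.22 to -0.95.

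GSTF12 (AT5G17220, chr5:5658416-5659661, plus strand), also called TRANSPARENT TESTA 19, is known as a carrier of anthocyanins to the vacuole, and it held the fewest counts of the measured members. It had 0.933, 0.817 and 1.099 CPM in Col and 1.78, 2.39 and 2.06 CPM in ore15-2, from 18, 18 and 23 against 11, 12 and 36 counts. The groups did not overlap. GSTF12 rose by 1.11 on the log2 scale (SE 0.25, edgeR adjusted p = 0.02348), a call that was lost without any 1 of the Col libraries or without ore15-2 replicate 1 (edgeR adjusted p from 0.05415 to 0.1367). It shares 108 bases with a gene on the opposite strand.

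GSTF8, the phi gene long used as a marker of early stress and salicylic acid responses, was the most abundant phi member per coding length, with a mean deposited RPKM of 2033 over the 6 libraries. Its level was 1258, 1230 and 1175 CPM in Col and 1935, 2820 and 1394 CPM in ore15-2. All ore15-2 libraries lay above Col, but replicates 1 and 2 lay much further above than replicate 3. The change of 0.75 (SE 0.30) was not past the threshold (edgeR adjusted p = 0.1474). Without ore15-2 replicates 1 and 2, which leaves a lone ore15-2 library, it was 0.20. It was past the threshold without ore15-2 replicate 3, at 0.93 (edgeR adjusted p = 0.002803), and by DESeq2 on all libraries, at 0.74 (DESeq2 adjusted p = 0.01764). GSTF8 shares 516 bases with a gene on its own strand.

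GSTF9, next in abundance with a mean RPKM of 1560, showed the same split between libraries, at 808, 936 and 869 CPM in Col and 1109, 1485 and 867 CPM in ore15-2. Replicate 3 of ore15-2 lay inside the Col range, and the change of 0.40 was not past the threshold (edgeR adjusted p = 0.309). GSTF10, which follows GSTF9 on chromosome 2, had a change of 0.51 (edgeR adjusted p = 0.1355). GSTF2, a phi protein known to bind camalexin and other indole compounds, had 131 to 142 CPM in Col and 121 to 173 CPM in ore15-2, and 1442 of its bases overlap a gene on the opposite strand.

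**Figure D2:**
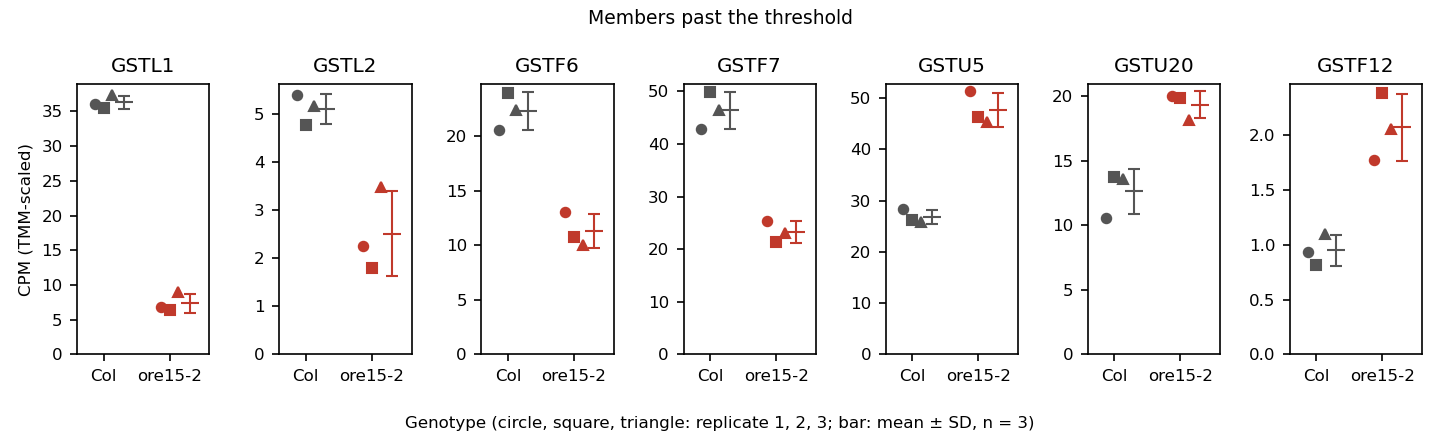
Level in CPM after TMM scaling (y axes, starting at 0) of the 7 members past the threshold in each of the 3 Col and 3 ore15-2 libraries (points), with the mean and SD of each genotype. In GSTL1, GSTF6 and GSTF7 all ore15-2 points lie low together.

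Among the 22 tau members measured, 2 rose (9.09%, background 6.47%), none fell (background 3.43%) and 20 were not past the threshold. At an unadjusted p under 0.05, 8 tau members were higher and 0 lower by the same edgeR fit, against 16.1% and 10.8% of all genes. The class median change was 0.25, and it was 0.25, 0.25 and 0.20 in ore15-2 replicates 1, 2 and 3 taken one at a time against the Col mean. Of the 22, 11 lay above all Col libraries in every ore15-2 library and 1, GSTU10, lay below. Of all genes, 18.2% lay above and 16.3% below in the same way.

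GSTU5 (AT2G29450, chr2:12624403-12625790, minus strand), an auxin-, pathogen- and herbicide-induced gene per its annotation, had 28.4, 26.2 and 25.8 CPM in Col and 51.4, 46.3 and 45.3 CPM in ore15-2. The groups were separated, and the 3 ore15-2 libraries were close to each other. GSTU5 rose by 0.83 on the log2 scale (SE 0.10, edgeR adjusted p = 0.00118), from 26.8 ± 1.42 to 47.7 ± 3.25 CPM (SD, n = 3 each). It passed the threshold in all 20 alternatives, with changes from 0.59 to 0.85.

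GSTU20 (AT1G78370, chr1:29484120-29485389, minus strand), whose protein is known to interact with a jasmonate-conjugating enzyme, had 10.6, 13.7 and 13.6 CPM in Col and 20.03, 19.9 and 18.1 CPM in ore15-2. The ore15-2 libraries were all above Col, by least in replicate 3. GSTU20 rose by 0.61 on the log2 scale (SE 0.14, edgeR adjusted p = 0.03068), but the call was lost without any 1 of the Col libraries or without ore15-2 replicate 1 (edgeR adjusted p from 0.09855 to 0.1442).

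The 2 most abundant tau members per coding length were GSTU19 and GSTU8. GSTU19, a major detoxifying tau enzyme with high activity on model herbicide substrates, had a mean RPKM of 2270, the highest in the family. Its CPM was 1380, 1290 and 1222 in Col and 1687, 2084 and 1313 in ore15-2. Replicate 3 of ore15-2 fell inside the Col range, and the change of 0.39 was not past the threshold (edgeR adjusted p = 0.3564). GSTU8 had a mean RPKM of 491 and CPM of 309.8, 300.7 and 288.2 in Col and 361.5, 325.4 and 365.4 in ore15-2. All 3 ore15-2 libraries were above Col, and the change of 0.23 was not past the threshold (edgeR adjusted p = 0.2912). Without ore15-2 replicates 1 and 2, which leaves a lone ore15-2 library, the change was 0.30.

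The remaining 18 tau members ranged from -0.50 to 0.47. At the low end, GSTU2 had 21.5, 17.5 and 17.3 CPM in Col and 14.7, 4.77 and 18.2 CPM in ore15-2, so that 1 library, ore15-2 replicate 2, set its value. GSTU2 shares 849 bases with a gene on the opposite strand. GSTU25 at 0.47, GSTU16 at 0.46, GSTU9 and GSTU17 at 0.41, GSTU22 at 0.37 and GSTU6 at 0.35 were above the Col range in every ore15-2 library, with edgeR adjusted p from 0.06428 for GSTU9 to 0.1004 for GSTU17. GSTU17 is known from work on drought and light signalling.

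The zeta, theta and DHAR members of the list showed no call in the edgeR fit, and 0 of these 5 genes had an unadjusted p under 0.05. GSTZ1, the maleylacetoacetate isomerase of tyrosine breakdown, had 235.0, 234.7 and 221.8 CPM in Col and 240.1, 206.4 and 275.0 CPM in ore15-2. Its ore15-2 libraries lay on both sides of Col, and the change was 0.063 (edgeR adjusted p = 0.7973). It was 0.27 without ore15-2 replicates 1 and 2, which leaves a lone ore15-2 library. GSTT1, the theta member of the list, had the smallest standard error of the members, at 69.5, 70.2 and 70.1 CPM in Col and 66.9, 72.4 and 69.4 CPM in ore15-2. Its change was -0.0083 (SE 0.087, edgeR adjusted p = 0.9623).

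The 3 DHAR enzymes regenerate ascorbate at the expense of glutathione. DHAR1, in the cytosol, had 176.9, 211.5 and 210.4 CPM in Col and 224.4, 251.3 and 196.3 CPM in ore15-2. DHAR2, also cytosolic, had 128.5, 134.1 and 121.9 CPM in Col and 161.1, 192.4 and 113.7 CPM in ore15-2. In both, ore15-2 replicates 1 and 2 were above Col and replicate 3 was within or below it. DHAR3, the chloroplast form, had 24.6, 23.9 and 24.8 CPM in Col and 22.5, 29.6 and 25.8 CPM in ore15-2. The edgeR changes were 0.16, 0.27 and 0.083 for DHAR1, DHAR2 and DHAR3, with adjusted p of 0.4681, 0.3392 and 0.6808, and DHAR1 and DHAR2 turned to -0.013 and -0.16 without ore15-2 replicates 1 and 2.

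Set class against class, the median change was -0.88 for lambda, 0.40 for phi, 0.25 for tau and 0.16 for DHAR. No lambda member had a change above 0, nor had the single theta gene. Against the Col mean, the lambda median was -1.13, -1.45 and -0.53 in ore15-2 replicates 1, 2 and 3, the phi median 0.35, 0.77 and -0.0039, and the DHAR median 0.17, 0.34 and -0.019. The phi and DHAR medians were above 0 in ore15-2 replicates 1 and 2 and near 0 in replicate 3, while the tau median was alike in all 3 libraries and the lambda median was below 0 in each.

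Summing the deposited RPKM over the members of a class gives its total transcript level per coding length. Tau summed to 5280, 4859 and 4701 in Col and 5352, 5068 and 5238 in ore15-2, and phi to 4476, 4632 and 4449 in Col and 5413, 6320 and 4703 in ore15-2. Lambda summed to 125.5, 123.3 and 122.7 in Col and 56.6, 36.6 and 82.1 in ore15-2. Tau made up 46.4% of family RPKM in Col and 44.3% in ore15-2, and phi 42.4% and 46.5%. The lambda share went from 1.16% of the family in Col to 0.496% in ore15-2.

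As log2 of ore15-2 over Col, the summed RPKM differed by 0.077 for tau, 0.28 for phi, -1.08 for lambda, -0.14 for zeta, -0.23 for theta and -0.032 for DHAR. These values depend on scaling, since the median change of all genes was -0.21 on log2(RPKM + 1) of the deposited values and -0.00049 under TMM. With the same RPKM rescaled by the TMM factors, they were 0.34, 0.56, -0.88, 0.087, 0.021 and 0.24 in that order, so zeta, theta and DHAR turned sign between the scales. Lambda was below all Col libraries and phi above on both scales, whereas tau was above only after rescaling. Single genes weighed heavily in these sums. Mean deposited RPKM of GSTL1 went from 55.8 in Col to 9.89 in ore15-2, within lambda means of 123.8 and 58.5. That of GSTF8, not past the threshold, went from 1694 to 2372, within phi means of 4519 and 5479. GSTF6 and GSTF7 fell within the same phi sum. Phi was at 0.058 on the deposited scale without ore15-2 replicates 1 and 2, and lambda at -0.59. No test was made of class sums.

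**Figure D3:**
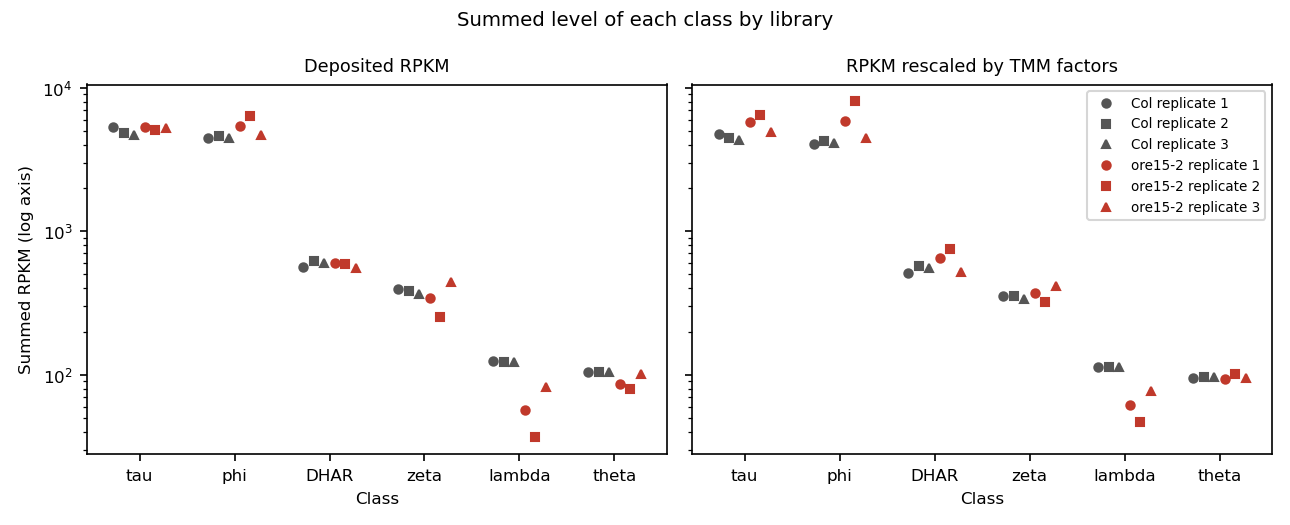
Summed RPKM of each class in each of the 3 Col and 3 ore15-2 libraries (points). On the deposited scale the lambda sums of 36.6 to 82.1 in ore15-2 lie below the 122.7 to 125.5 of Col, and the tau sums overlap.

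Many members sit beside relatives in the genome, and neighbours did not always change alike. With neighbours at most 20000 bases apart, 25 of the 43 members fell into 8 arrays, 22 of them tested, and 5 of the 7 called members were in arrays. The largest array, GSTU7 to GSTU1 on chr2:12617936-12632538, held 7 genes, of which 6 were tested and only GSTU5 rose, with changes from -0.50 to 0.83. The closest measured relative of GSTU5 there, GSTU6, is 83.4% identical in coding sequence, and its change was 0.35 (edgeR adjusted p = 0.07893). In the array of GSTU23, GSTU22, GSTU21, GSTU20 and GSTU19 on chr1:29467412-29488007, 4 were tested, GSTU20 rose, and changes ran from 0.27 to 0.61. GSTF6 and GSTF7 were the array in which both members passed the threshold, while of GSTL1 and GSTL3 only GSTL1 did. Arrays were built from the 43 genes only. GSTF4 (AT1G02950), outside the 43, has an identifier close to those of GSTF6 and GSTF7. It lay below the Col range in every ore15-2 library, but its change of -0.45 was not past the threshold (edgeR adjusted p = 0.07031). None of the 37 measured members lies in a stretch of chromosome 1 next to ORE15 (bases 8692630 to 11059037), in which 317 of 400 tested genes rose and 1 fell. No rule independent of these data is given for the edges of this stretch, so the count only describes it.

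**Figure D4:**
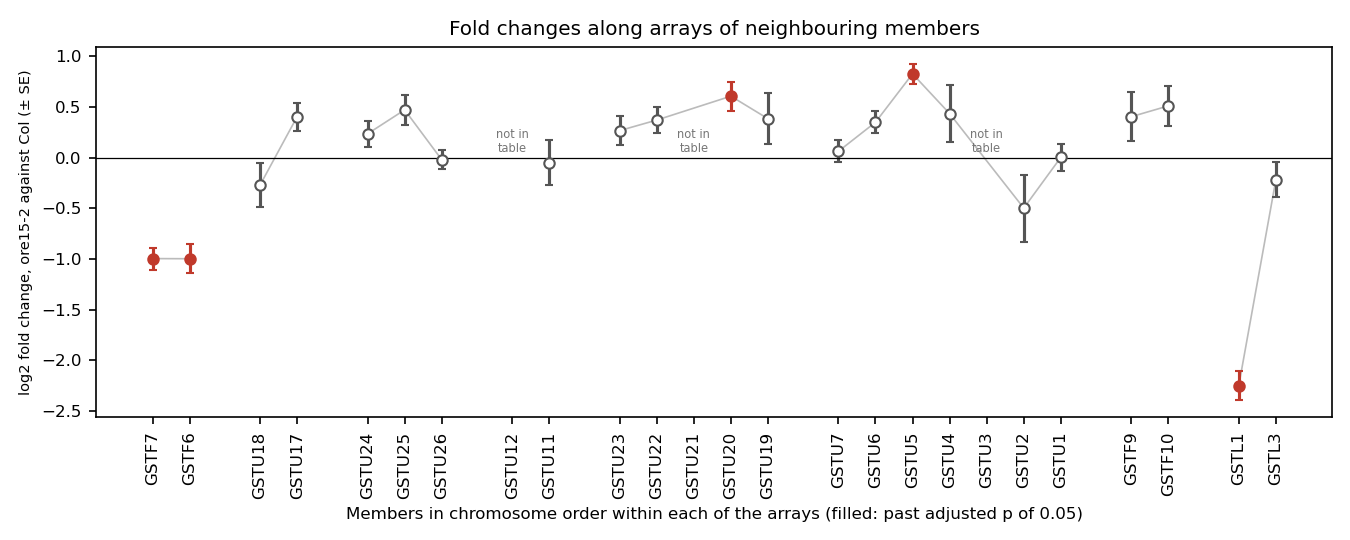
Log2 fold change of ore15-2 over Col (y axis, bars are the standard error) of tested members in the 8 arrays, in genomic order (x axis). GSTF7 and GSTF6 lie together at -0.995 and -0.996, whereas GSTL1 at -2.25 and GSTL3 at -0.22 lie apart.

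In the 250 bases before the annotated start, 3 motifs were searched on both strands. TGACG, the core bound by TGA factors, was in 16 of 43 members (37.2%) against 18.6% of 27443 protein-coding genes. TTGAC was in 29 of 43 (67.4%) against 44.9%, and it overlaps TGACG where a G follows. CACGTG, the G-box, was in 6 of 43 (14.0%) against 6.49%. TGACG was in 1 of the 3 members that rose, 0 of the 4 that fell and 13 of the 30 not past the threshold, and TTGAC in all 3, all 4 and 17 of 30. Array members share sequence, and these matches are letters in a window, not sites shown to be bound.

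Lists of 58 further genes, 50 of them tested, were followed beside the family. They cover glutathione metabolism and transport, ascorbate peroxidation and recycling, and the response to chemicals and oxidants. Of the 50, 6 rose (12.0%, background 6.47%) and 1 fell (2.0%, background 3.43%). Of the 6, MDAR3, AKR4C9 and ZAT12 are not genes of glutathione metabolism, and GSTU13 and ABCC1 lie in the raised stretch of chromosome 1. The 12.0% therefore does not describe glutathione metabolism alone. Among 6 tested glutathione transferases outside the 43, GSTU13, an enzyme of indole glucosinolate breakdown, had 185.5, 209.7 and 196.2 CPM in Col and 422.9, 543.3 and 344.6 CPM in ore15-2. All ore15-2 libraries were far above Col, and GSTU13 rose by 1.15 on the log2 scale (SE 0.18, edgeR adjusted p = 0.004556). It lies in the raised stretch of chromosome 1, as does its neighbour GSTU14, whose change was -0.21 (edgeR adjusted p = 0.4878).

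None of the 4 genes of glutathione synthesis and reduction passed the threshold, nor did any at an unadjusted p under 0.05 in the edgeR fit, and GSH2 (glutathione synthetase) had the smallest p at a change of -0.21 (edgeR adjusted p = 0.2452). Of 6 glutathione peroxidases tested, the plastid form GPX1 fell by 0.64 on the log2 scale (edgeR adjusted p = 0.003817) from 41.2, 47.2 and 43.8 CPM to 27.9, 29.0 and 28.0 CPM, with no overlap. GPX8 rose by 0.46 (edgeR adjusted p = 0.02311), as did MDAR3, a monodehydroascorbate reductase and 1 of 10 tested genes of ascorbate peroxidation and recycling, by 0.51 (edgeR adjusted p = 0.03101). Both calls were lost without any 1 of the Col libraries or without ore15-2 replicate 1, with edgeR adjusted p up to 0.174 and 0.1574 over all alternatives.

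The ABCC genes code for membrane pumps, and ABCC1 and ABCC2 are known to carry glutathione conjugates into the vacuole. All 4 tested lay above the Col range in every ore15-2 library, as did 18.2% of all genes. ABCC1, which lies in the raised stretch of chromosome 1, rose by 0.85 (edgeR adjusted p = 0.004224), a call lost without Col replicate 2 or 3 (highest edgeR adjusted p = 0.06317). ABCC2, ABCC3 and ABCC4 had changes of 0.25, 0.24 and 0.30, none past the threshold. Of 6 tested genes of glutathione and conjugate breakdown none was called and 2 had an unadjusted p under 0.05 in the edgeR fit, with OXP1 (5-oxoprolinase) at 0.31 (edgeR adjusted p = 0.1029).

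In the list of 14 genes of the response to chemicals and oxidants, 2 rose (14.3%, background 6.47%). AKR4C9, a chloroplast aldo-keto reductase that detoxifies reactive carbonyls, had 5.39, 4.18 and 3.15 CPM in Col and 14.4, 9.34 and 10.9 CPM in ore15-2, with no overlap, and rose by 1.44 (SE 0.23, edgeR adjusted p = 0.005094). ZAT12, a zinc finger factor of stress responses, rose by 0.47 at the edge of the threshold (edgeR adjusted p = 0.04928) and passed in 7 of 20 alternatives. It was lost without any 1 of the Col libraries, without ore15-2 replicate 1, and without ore15-2 replicates 1 and 2 together.

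Markers of cell types moved between the genotypes beside these genes, where 6.47% of all genes rose and 3.43% fell. Of 8 root hair markers, 7 rose, and RHD6 was not past the threshold at 0.035 (edgeR adjusted p = 0.8841). The summed level of the 8 was 376.4 to 449.9 CPM in Col and 687.0 to 1229 CPM in ore15-2. Of 3 phloem markers, 2 fell, SUC2 and SEOR1, and the sum was 54.6 to 70.5 CPM in Col and 27.0 to 43.4 CPM in ore15-2. Of 4 leaf mesophyll markers, 2 rose, LHCB1.1, which lies in the raised stretch of chromosome 1, and RBCS3B, which does not. LHCB1.3, not past the threshold, also lies in the stretch. The summed level of the 4 markers was 258.5 to 284.4 CPM in Col and 218.0 to 507.6 CPM in ore15-2. No marker of the 6 meristem, 3 endodermis, 2 xylem or 3 root cap genes was called, and 0 of all these markers had a count of 0 in any library. The part of cell composition in the members' differences was not tested.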

How the data were processed

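Poly(A) RNA of 0.5 cm root tips was sequenced in 3 Col and 3 ore15-2 libraries after a cut at RNA integrity number 6.7. The authors deposited raw read counts per gene and RPKM values. Per the submitters' processing notes, FastQC, cutadapt, TopHat2 and HTSeq were used with TAIR10. The strand setting of the counting is not given in the sources used here. Reads of genes that overlap on opposite strands may therefore be mixed. In all 18340 genes of both tables, the RPKM the authors deposited and the counts implied 1 length in all libraries (relative tolerance 0.001) when library totals were taken over the genes of the RPKM table; with totals over the count table this held for 1 gene. The implied length lay within 1% of the coding length for 36 members, so RPKM restates the counts per coding length.

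Genes passing edgeR's default expression filter (18726 of 18734) were fitted in R 4.3.3 with edgeR 4.0.16 (TMM scaling, quasi-likelihood test, genotype as the only term), with Benjamini-Hochberg adjustment over all of them. CPM are scaled by TMM. Standard errors are the size of the log2 fold change over the square root of the F statistic of the same fit. The lowest count of a member in a library was 9, and library totals ran from 6396903 to 20333352. The method was tested on simulated counts with the same spread in every library. That cannot show how it performs with the ore15-2 libraries that stood apart. Alternatives used other scalings and filters, DESeq2 1.42.0, limma 3.58.1 (voom, and on log2(RPKM + 1) or log2(RPKM + 0.1)), a replicate block, a fold minimum of 1.5, omission of organelle genes or of the chromosome 1 stretch, and omission of libraries, 20 settings for each gene.

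Members past the threshold were named with their values, with the 2 members highest in mean RPKM per class (all where a class has 3 or fewer) and tandem neighbours; others are given by range and count, and those named beyond this were chosen after their values were seen. In each pathway list up to 3 called genes with the largest change were named, or the 1 with the smallest p. The members and lists were chosen with earlier results of these data known. Members are matched by gene identifier, since the tables carry older names for some. From the lists, 3 genes without a matching name in the reference were left out. Sequences, positions and motifs came from the RefSeq TAIR10.1 genome.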

Additional observations from a re-analysis of the deposited data

How the results depend on the processing

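GSTU5, GSTF6, GSTF7 and GSTL1 kept direction and call in all 20 settings. GSTU20 was called in 12 of 20, GSTF12 in 11 of 19 (the stricter filter removed it) and GSTL2 in 9 of 20. Members that rose numbered 3 in the edgeR fit, 7 by DESeq2, 1 in each RPKM fit, 11 without ore15-2 replicates 1 and 2 together, where the lone ore15-2 library is assumed to vary like Col, and 1 to 13 with 1 library left out. Members that fell numbered 4, and 3 to 7 with 1 library left out. Same-numbered libraries did not deviate together (correlations 0.062, 0.083 and -0.203), and the replicate block left 1 member that rose. The share of all genes that rose was 8.89% by DESeq2 and 5.82% with the replicate block, against 6.47% in the edgeR fit without a block. Pathway genes that rose numbered 6, but 3 without the chromosome 1 stretch, 3 with a fold minimum of 1.5, 3, 2 and 3 in the fits on RPKM + 1, RPKM + 0.1 and RPKM + 1 unfiltered, and 2 to 16 with 1 library left out. Those that fell numbered 1, but 2 with upper-quartile scaling, 3 by DESeq2, 4 without ore15-2 replicates 1 and 2, 2 in each RPKM fit, and 1 to 8 with 1 library left out. Of all genes, 1211 rose and 643 fell; 799 rose without the chromosome 1 stretch, 2054 rose and 1055 fell without ore15-2 replicates 1 and 2, 469, 447 and 474 rose in the RPKM fits, and 418 to 3510 rose and 216 to 3102 fell with 1 library left out. The causes of these shifts were not tested, except that leaving out the stretch removes genes.

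Sign changes were seen in genes never called in the edgeR fit. Without ore15-2 replicates 1 and 2, GSTL3 was at 0.12, GSTT1 at 0.00029, DHAR1 at -0.013 and DHAR2 at -0.16. With 1 library left out, GSTZ1 ran from -0.075 (without ore15-2 replicate 3) to 0.16, GSTT1 from -0.038 to 0.018 (without ore15-2 replicate 1) and DHAR3 from -0.0020 (without ore15-2 replicate 2) to 0.17. In the RPKM fits GSTZ1 was at -0.17, DHAR1 at -0.060 and DHAR3 at -0.14, -0.15 and -0.14. Class sums rescaled by TMM were 0.34 for tau, 0.56 for phi, 0.021 for theta, 0.24 for DHAR and 0.41 for all members. On the deposited RPKM scale, sums without ore15-2 replicates 1 and 2 were 0.058 for phi, -0.052 for theta, -0.11 for DHAR and 0.059 for all members. Over single genes and settings, 431 values kept direction and call, 59 lost the call, 11 gained it and 16 changed sign. Depth limits GSTF12 and GSTL2 most, with counts as low as 11 and 9 in a library.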
